A study of Mus musculus with 18 samples.

Results

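The effect of kainic acid (KA) on RNA bound to astrocytic ribosomes was compared with its effect on the RNA of the whole hippocampus. The comparison used 12 of the 18 libraries: IP and input of 3 KA samples and of 3 AAV control samples. For each gene, the log2 change from AAV control to KA in input was subtracted from the same change in IP. The result, the IP-minus-input difference, is positive where KA raised a transcript more, or lowered it less, in IP than in input. The rule took genes with an FPKM (fragments scaled by transcript length and by the mapped reads of the library) above 1 in all 6 IP libraries, which kept 9729 of 55291 gene symbols.

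All mice were male wild-type C57BL/6J. At 6 weeks of age they received AAV_DJ-GfaABC1D-EGFP-Rpl10a in the right CA3, so every group carried the same transgene: an EGFP-tagged ribosomal protein under a short GFAP promoter. In the KA group, 50 nL of 20 mM KA were injected into the right dentate gyrus 2 weeks after the AAV, and RNA was taken 14 days later. RNA of the AAV control group was taken 2 weeks after the AAV, without a second injection, so KA, the second surgery and the longer time since the AAV cannot be told apart in this contrast. The PBS group received PBS in place of KA. Each sample pooled the right hippocampi of 3 to 4 mice. The anti-GFP antibody pulled the tagged ribosomes from a homogenate (IP), and a small part of the same supernatant served as input. The labels call both kinds of library hippocampal astrocyte, but the input holds RNA of all cells of the tissue.

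Translating ribosome affinity purification enriches the transcripts that the tagged cell type is translating, and RNA of untagged cells is carried along at a low level. The ratio of IP to input therefore shows how strongly a transcript is tied to the tagged cells in that sample. Injection of KA, an agonist of ionotropic glutamate receptors, into the hippocampus starts a prolonged seizure, kills pyramidal neurons and interneurons near the injection and leaves gliosis, microglial activation and dispersion of the granule cell layer. Reactive astrocytes are known for raised intermediate filaments, secreted proteins and stress genes. Because these are bulk libraries, fewer cells of a type and less RNA per cell cannot be told apart.

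Library totals ran from 7991681 to 12821143 counts (median 10035396) in the 12 libraries and from 10052992 to 16032180 in the 6 PBS libraries. Astrocyte markers were enriched in all IP libraries: 20 of 20 were tested, and their median log2 ratio of IP to input was 3.22, 3.26 and 2.77 in the 3 AAV control homogenates, 3.11, 3.13 and 2.50 in the PBS homogenates and 1.60, 1.65 and 1.64 in the KA homogenates. The enrichment was not theirs alone. Oligodendrocyte markers had median ratios of 1.47, 1.23 and 0.75 in the KA homogenates, with −1.42, −0.99 and 0.42 in AAV control. These ratios use FPKM with 1 added to both libraries. Endogenous Rpl10a and the transgene cannot be told apart in the counts; Rpl10a was enriched by 2.87 (log2) in AAV control and 2.53 in KA, and its IP-minus-input difference was −0.34 ± 0.32, adjusted p = 0.559. In both groups #3 stood apart from #1 and #2. Squared count differences over counting noise, averaged over genes, were 11.4 between AAV control IP #1 and #2. They were 140 and 158 between #3 and these. In KA IP they were 13.0, and 110.7 and 90.7 with #3. The IP libraries of AAV control #1 to #3 held 14.01, 17.1 and 177 FPKM of the ependymal gene Tmem212, 2.90, 2.95 and 41.2 FPKM of the smooth muscle gene Acta2 and 45.997, 38.5 and 876 FPKM of the class I MHC gene H2-D1. Samples #1 and #2 of both groups were sequenced in run 1 and #3 of both groups in run 2, so the difference can be computed within run 1. The PBS libraries came from run 3. From here on, values per library are given for #1 to #3 in that order, first for AAV control and then, after "against", for KA.

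The IP-minus-input difference was called at an adjusted p below 0.05 and an absolute log2 value of at least 1. Adjusted p-values come from edgeR's quasi-likelihood test with Benjamini-Hochberg adjustment, and ± gives the standard error of a log2 value. Of the 9729 genes, 939 (9.65%) were called, 493 (5.07%) higher and 446 (4.58%) lower, and the smallest adjusted p was 1.96e-04. The median difference over all genes was −0.02. With the homogenate as a block, which pairs IP and input of a sample, 1327 genes were called, 646 higher and 681 lower. Within run 1 alone, 1403 were called, 688 higher and 715 lower. Without AAV control #3 the count was 1321, without AAV control #1 or #2 it was 504 or 611, and without KA #1, #2 or #3 it was 617, 489 or 719. The same contrast for PBS called 0 of 10667 genes (0%), with 454 at an unadjusted p below 0.05; for KA 2624 genes reached that unadjusted p. Without AAV control #3 the PBS contrast called 32 genes.

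Among the genes kept by the filter on IP, KA effects were called more often and spread more widely in IP than in input. This did not hold for every list. In IP, 656 genes (6.74%) were called higher and 561 (5.77%) lower than in AAV control, and in input 257 (2.64%) higher and 16 (0.164%) lower. The standard deviation of the KA effect over all genes was 0.739 in IP and 0.492 in input. Of the 493 higher genes, 324 rose in IP without a call in input, 18 rose in both, and 149 were called in neither alone. Pvalb was called higher in IP and lower in input, and Ppp3ca, a calcineurin subunit named after its values were seen, fell in input alone (KA effect −1.04 in input and 0.79 in IP). Among the 446 lower genes, 250 fell in IP without a call in input, 58 rose in input without a call in IP, 7 rose in both, and 129 were called in neither alone. Ptgs1 fell in IP and rose in input. The clock gene Per3, named after its values were seen, fell in both (−2.28 in IP and −1.14 in input), but lost its call without each of the 6 homogenates (adjusted p up to 0.146).

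**Figure D1:**
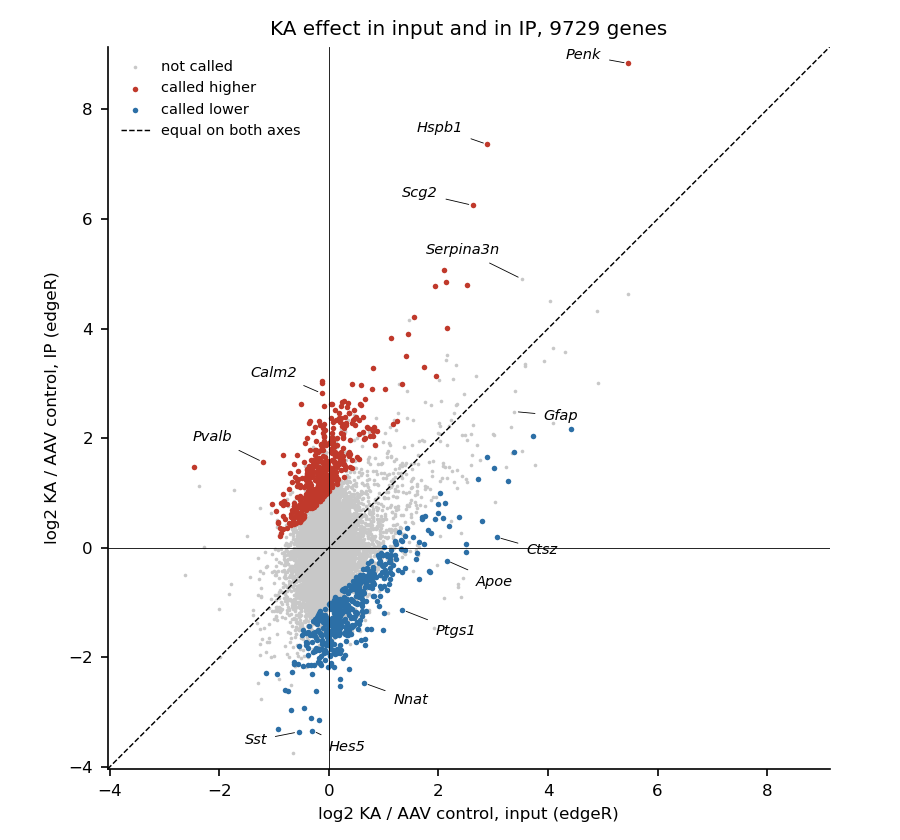
KA effect (log2 KA over AAV control, fitted by edgeR) in input on the horizontal axis and in IP on the vertical axis for 9729 genes; red points are the 493 genes called higher in IP than in input, blue points the 446 called lower, grey points were not called, and the dashed line marks equal effects. The red points lie above the line mostly near 0 on the input axis, Penk, Hspb1 and Scg2 lie highest of them, and the blue points split into genes that fell in IP and genes such as Ctsz and Apoe that rose in input.

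The called genes lay mostly where IP and input differed without KA. In AAV control, 1621 of all tested genes (16.7%) were at least 2-fold over input and 1343 (13.8%) at least 2-fold under it, each at an adjusted p below 0.05. By fold alone, 424 of the higher genes (86.0%) were under input in AAV control and 1 was over it. Of the lower genes, 407 (91.3%) were over input and 12 under it. With the adjusted p as well, 423 higher genes were under input and 407 lower genes over it. The AAV control ratio is part of the difference itself, so these shares describe the members and are no test. The PBS libraries were not used by the difference, and both limits, fold and adjusted p, were applied to them. In them, 1942 of 10667 genes (18.2%) were at least 2-fold over input and 1300 (12.2%) under it, whereas 394 of the 477 higher genes that could be tested there (82.6%) were under input and 389 of 442 lower genes (88.0%) were over it. In KA, at the same thresholds, fewer genes were at least 2-fold away from input, 793 genes over (8.15%) and 409 under (4.2%).

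In the genes that were over or under input without KA, the ratio of IP to input was closer to 0 in KA. Genes over input in AAV control had a median log2 ratio of 1.78 there, 0.945 in KA and 1.62 in PBS. Genes under input had −1.55 in AAV control, −0.693 in KA and −1.43 in PBS. Across genes, which are not independent replicates, the slope of the KA ratio on the AAV control ratio was 0.511, and that of the PBS ratio 0.900. The ratios of the 3 KA homogenates did not overlap those of the 3 AAV control homogenates in 4726 of 9729 genes (48.6%), in all 493 higher genes and in 443 of the 446 lower genes. Whether more input-like RNA in the KA precipitates, less enrichment of astrocytic RNA or changes within the cells moved the ratios was not tested.

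**Figure D2:**
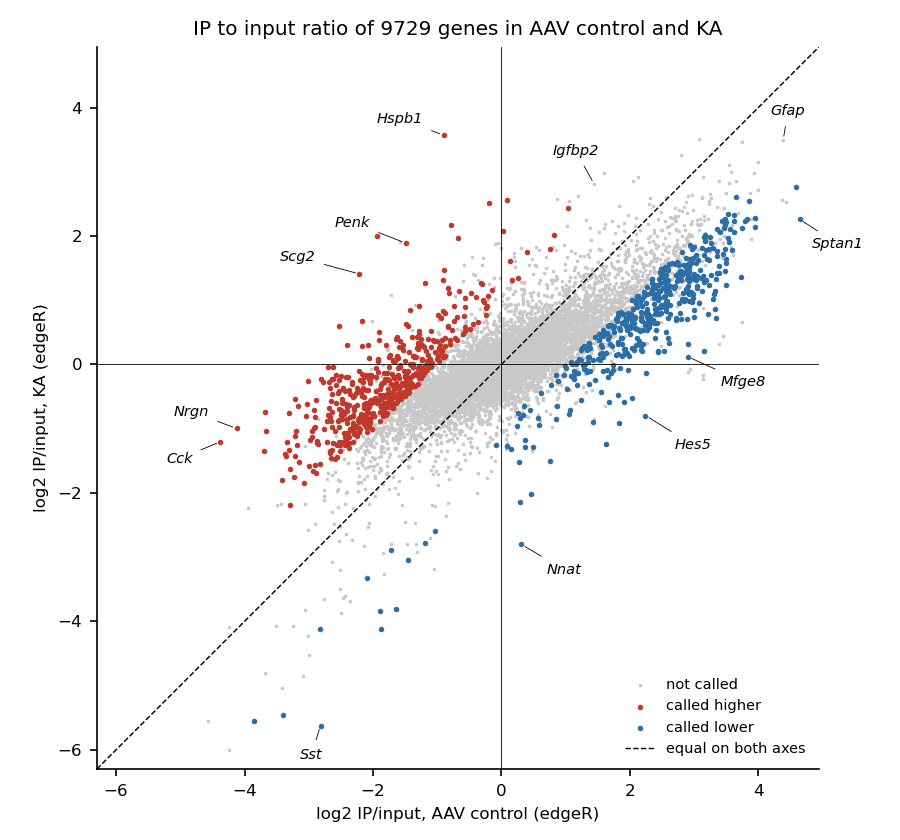
Fitted log2 ratio of IP to input in AAV control (horizontal) and in KA (vertical) for 9729 genes; red points were called higher and blue points called lower in the IP-minus-input difference, and the dashed line marks equal ratios. Red points sit mostly left of 0 and above the line and blue points mostly right of 0 and below it; Hspb1, Penk and Scg2 lie above 0 in KA although they were below 0 in AAV control, Nnat and Hes5 crossed to below 0, and Sst lay below 0 in AAV control and further below in KA.

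Some genes changed sides. In 51 higher genes the ratio was below 0 in every AAV control homogenate and above 0 in every KA homogenate (116 of all tested genes did so), and in 50 lower genes it moved the opposite way (363 of all tested). Of the higher genes, 30 (6.09%) were at least 2-fold over input in KA by fold alone. Mrps6, a mitochondrial ribosomal protein named after its values were seen, was the 1 higher gene already over input in AAV control: its FPKM in IP went from 62.5, 61.5 and 45.2 in AAV control to 269.7, 259 and 224 in KA, and in input from 37.2, 31.6 and 19.1 to 58.3, 57.2 and 43.95, a difference of 1.39 ± 0.26, adjusted p = 0.00520. Mrps6 overlaps Slc5a3 on the same strand, so its counts can hold reads of that gene.

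Hspb1, which encodes the small heat shock protein Hsp27, had the largest difference of all called genes. In IP it was at 3.03, 1.12 and 2.88 FPKM in AAV control #1 to #3 and at 443, 440.1 and 273 FPKM in KA. In input it was at 5.83, 3.56 and 4.93 FPKM and at 38.9, 42.2 and 29.2 FPKM. Both kinds of library rose with no overlap between groups, and IP passed from below input in every AAV control sample to above it in every KA sample. The KA effect was 7.36 in IP and 2.89 in input (log2), a difference of 4.47 ± 0.43, adjusted p = 2.11e-04. The gene lies at chr5:135887919-135889563, plus strand (mm10). Hspb1 was also the 1 of 8 tested pan-reactive astrocyte genes that was called.

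Tnfrsf12a, the receptor of the cytokine TWEAK, and Hpgd, which inactivates prostaglandins, rose in both kinds of library and further in IP. Tnfrsf12a stood at 1.79, 1.30 and 4.81 FPKM in AAV control IP and 71.4, 80.95 and 80.04 FPKM in KA IP, with 3.4995, 3.09 and 3.54 against 17.1, 14.9 and 14.5 FPKM in the inputs (difference 2.71 ± 0.53, adjusted p = 0.00615). Hpgd stood at 1.67, 1.80 and 2.13 against 68.9, 73.3 and 44.6 FPKM in IP and at 4.61, 3.36 and 2.69 against 21.1, 15.5 and 10.4 FPKM in input (difference 2.97 ± 0.37, adjusted p = 5.71e-04). In both genes every KA library lay above every AAV control library of its kind. Igfbp7, a secreted protein that binds insulin-like growth factors, rose from 4.28, 4.41 and 6.65 to 117, 107 and 60.97 FPKM in IP and from 8.60, 7.02 and 10.9 to 28.4, 30.1 and 23.2 FPKM in input (difference 2.65 ± 0.38, adjusted p = 0.00101). It was the 1 gene that edgeR called among 16 tested secreted protease inhibitors and IGF binding proteins, a list whose median difference was 0.10; with the homogenate block 4 were called higher and 1 lower, DESeq2 called 2 higher and 1 lower, and limma-voom 1 higher and 1 lower. Cebpd, a transcription factor of the acute phase response, and Nupr1, a stress-induced chromatin protein, were named after their values were seen and lost their call without 4 of the 6 homogenates in turn. The difference was 2.48 ± 0.71, adjusted p = 0.0388 for Cebpd (adjusted p up to 0.136 without a homogenate). For Nupr1 it was 1.19 ± 0.28, adjusted p = 0.0154 (adjusted p up to 0.1004).

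Secreted peptides of dense-core vesicles rose in IP. Of 18 neuropeptides, granins and growth factors, 12 were tested and 10 rose in IP and 6 in input; in the difference 7 were called higher (Bdnf, Chgb, Scg2, Vgf, Nrn1, Chga and Penk) and 1, Scg3, lower, and the median difference was 2.20. Without KA #3 the median was 1.69. The median log2 ratio of IP to input of the list was −1.91, −1.90 and −2.03 in AAV control and −0.04, −0.15 and 0.75 in KA.

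Penk, the precursor of the enkephalins, rose furthest in IP of all tested genes. In IP it went from 10.96, 9.15 and 5.25 FPKM in AAV control to 2380.4, 1905 and 6297 FPKM in KA, and in input from 28.96, 22.8 and 23.1 to 1042, 913 and 1405 FPKM. KA #3 was highest in both kinds of library. The KA effect was 8.84 in IP and 5.46 in input, and the difference was 3.38 ± 0.65, adjusted p = 0.00527, between 2.79 and 3.54 without each homogenate in turn. Penk shares its locus with A830012C17Rik on the opposite strand. Scg2, secretogranin II, a granin of the vesicle core, had 16.5, 18.1 and 14.4 FPKM in AAV control IP and 1030.3, 944 and 1538 FPKM in KA IP, with 69.5, 69.8 and 99.3 against 562, 499.6 and 474 FPKM in the inputs (difference 3.62 ± 0.38, adjusted p = 3.03e-04). For Bdnf, brain-derived neurotrophic factor, the values were 2.91, 2.91 and 2.57 against 70.2, 62.05 and 87.2 FPKM in IP and 12.7, 13.7 and 13.6 against 58.1, 52.7 and 48.4 FPKM in input (difference 2.83 ± 0.25, adjusted p = 1.98e-04). In each of these 3 genes IP was below input in all AAV control samples and above input in all KA samples. Chgb, chromogranin B, rose in IP alone, from 23.8, 24.6 and 24.7 to 131, 109 and 112 FPKM, with 163, 162 and 207 against 173, 174 and 139 FPKM in input (difference 2.50 ± 0.24, adjusted p = 2.11e-04). Vgf, a secreted peptide precursor named after its values were seen, differed by 2.70 ± 0.30, adjusted p = 3.74e-04.

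Sequence upstream of the start is shown for named genes that hold the cAMP response element TGACGTCA, the site of the activity-regulated factor CREB, because members with opposite differences share it. The RefSeq promoter table (GRCm38.p6) held 78 of the 102 named genes, and Penk was not among them. The 250 bases before the RefSeq start were searched on both strands; the motif reads the same on both. It stood in 508 of 32851 promoters (1.55%) and in 248 of 7531 tested genes with a promoter (3.29%). Of the named genes Scg2, Chgb and Sst held it; Scg2 and Chgb were called higher and Sst, the somatostatin precursor, lower. The 30 bases around each match follow in the direction of the gene, 5′ to 3′, with the match in capitals, at chr1:79440076-79440105 (minus strand), chr2:132781559-132781588 (plus strand) and chr16:23890874-23890903 (minus strand).
Scg2: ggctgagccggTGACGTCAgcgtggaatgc
Chgb: gggctgctccgTGACGTCAgggctgagcga
Sst: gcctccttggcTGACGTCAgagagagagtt
The element ended 61 bases before the RefSeq start in Scg2, 65 in Chgb and 41 in Sst. In all 3 genes the GENCODE annotation starts further upstream, so these stretches lie inside the annotated gene. A match is a description of the letters and not of binding.

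Interneuron genes moved in both directions. For Sst, FPKM in IP fell from 141, 212 and 154 in AAV control to 16.8, 17.04 and 13.8 in KA, while input held 1285, 1292 and 1218 FPKM in AAV control and 824, 986 and 857 FPKM in KA (KA effect −3.36 in IP and −0.55 in input; difference −2.81 ± 0.24, adjusted p = 1.96e-04). No KA library overlapped an AAV control library of its kind. For Pvalb, parvalbumin, IP rose from 13.1, 15.6 and 12.7 to 58.8, 28.8 and 30.8 FPKM, and input fell from 133, 131 and 92.4 to 52.3, 51.7 and 55.02 FPKM (difference 2.76 ± 0.33, adjusted p = 4.74e-04). Cck, the cholecystokinin precursor, rose in IP from 64.6, 80.1 and 64.4 to 1054, 354 and 288 FPKM, with KA #1 the highest, and held 1546, 1565 and 1506 against 1878, 1429.7 and 1074 FPKM in input (difference 3.17 ± 0.54, adjusted p = 0.00290). Of 8 tested interneuron markers, Gad1, Pvalb and Cck were called higher and 2, Sst among them, lower (median 1.22). Calb2, calretinin, named after its values were seen, also fell in IP, from 6.43, 6.84 and 6.94 to 2.16, 2.59 and 2.67 FPKM, and held 28.6, 24.6 and 27.4 against 54.8, 39.1 and 29.4 FPKM in input (difference −1.95 ± 0.29, adjusted p = 0.00127).

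**Figure D3:**
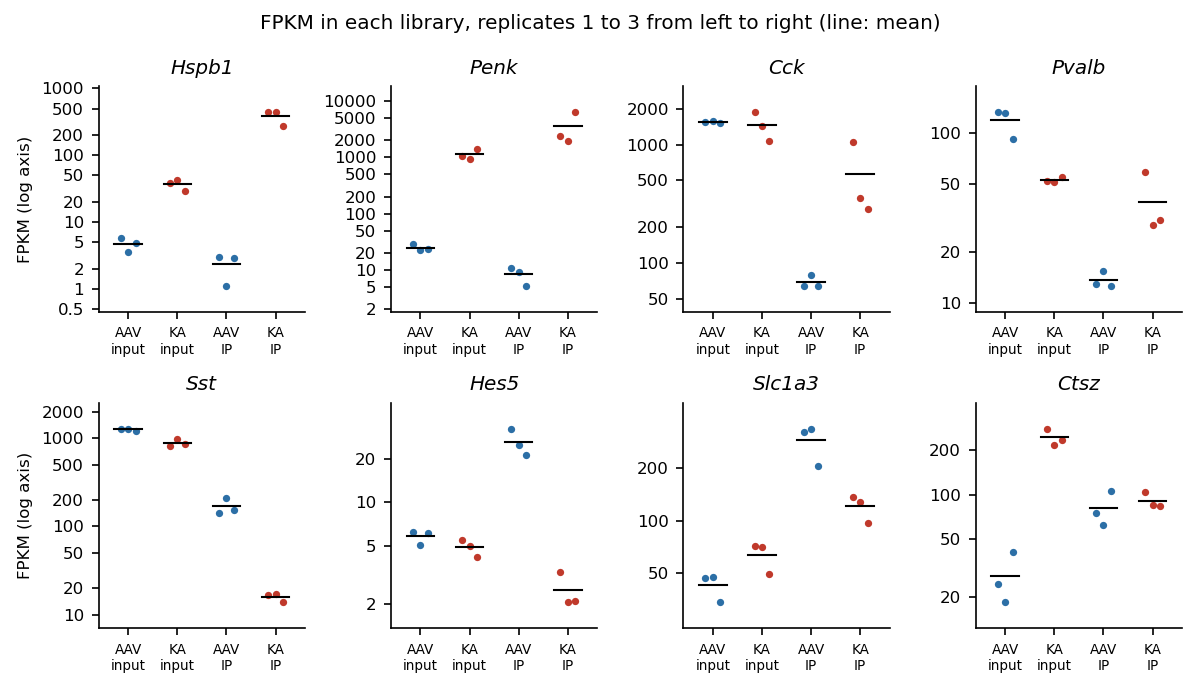
FPKM of 8 genes (log axes) in input and IP of AAV control (blue) and KA (red), 3 libraries a group, with the mean as a line. Hspb1 and Penk were higher in KA in both kinds of library, Cck and Pvalb higher in KA IP alone, Sst, Hes5 and Slc1a3 lower in KA IP, and Ctsz higher in KA input.

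Immediate early genes are switched on by neurons and glia within minutes of stimulation, and RNA was taken 14 days after KA. Of 14 tested, 6 were called higher (Junb, Egr1, Nr4a1, Homer1, Nr4a2 and Arc) and none lower, with a median difference of 1.07. The KA effect was called higher for 10 of the 14 in IP and for 1 in input. Arc, named after its values were seen, encodes a synaptic capsid-like protein and lost its call without 4 of the 6 homogenates (1.94 ± 0.57, adjusted p = 0.0439; up to 0.168). Egr1, a zinc finger transcription factor, had 4.74, 4.43 and 2.75 FPKM in AAV control IP and 16.1, 17.2 and 22.3 in KA IP, with 29.3, 32.3 and 20.2 against 20.6, 22.5 and 22.9 in input (difference 2.65 ± 0.32, adjusted p = 4.74e-04). Junb, an AP-1 subunit, had 8.64, 8.73 and 6.95 against 47.8, 44.9 and 35.9 FPKM in IP and 24.99, 24.3 and 20.04 against 33.1, 28.6 and 20.1 FPKM in input (difference 2.26 ± 0.21, adjusted p = 2.11e-04). KA libraries lay above AAV control libraries in IP and overlapped them in input for both genes. Nr4a1, an orphan nuclear receptor, differed by 2.05 ± 0.39, adjusted p = 0.00487. Rasd1, a small G protein induced by glucocorticoids that stood outside the list, went from 2.08, 3.31 and 3.83 to 15.3, 20.6 and 35.5 FPKM in IP and had 19.4, 17.4 and 21.2 against 16.7, 17.1 and 21.2 FPKM in input (difference 3.13 ± 0.49, adjusted p = 0.00187).

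Calm2 and Nrgn, abundant transcripts of neurons, rose in IP and were not called in input. Calm2, a calmodulin gene, had 649, 687 and 719 FPKM in AAV control IP and 4154, 3879 and 5798 FPKM in KA IP, and 9498, 9312 and 9501 against 9659, 9461 and 7663 FPKM in the inputs (difference 2.95 ± 0.37, adjusted p = 5.71e-04). Nrgn, neurogranin, which binds calmodulin in dendrites, had 311, 307 and 183 against 1154, 1510.1 and 1953 FPKM in IP and 5237, 5224 and 4272 against 3706, 4186 and 2835 FPKM in input (difference 3.13 ± 0.39, adjusted p = 5.72e-04). Both stayed below input in every KA sample. Of 15 tested pan-neuronal markers 7 rose and 1 fell in IP, and the median KA effects were 0.92 in IP and −0.26 in input. In the difference 8 were called higher and none lower (median 1.21), among them Stmn3, a microtubule regulator (2.56 ± 0.29, adjusted p = 4.38e-04), Eno2, the neuronal enolase (1.93 ± 0.23, adjusted p = 4.96e-04), and Nefl, the light neurofilament (1.57 ± 0.18, adjusted p = 4.74e-04). The summed FPKM of the 15 markers in IP lay between 470.4 and 509 in AAV control, 551 and 858 in PBS and 1530.3 and 1683 in KA; in input it lay between 3212 and 3642 in AAV control and 2751 and 3680.3 in KA. The part of neuronal RNA in the other higher genes was not tested.

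Lists of synapses and neuron subtypes held calls in the same direction. Among 21 tested genes of synaptic vesicles and release, 13 were called higher and none lower (median 1.15), including Syp, synaptophysin (1.82 ± 0.27, adjusted p = 0.00135), and Sv2a, a vesicle glycoprotein (1.63 ± 0.21, adjusted p = 6.77e-04). For markers of dentate granule cells, 4 of 7 were called higher (median 1.25), Prox1, Npnt, Stxbp6 and C1ql2. Prox1, the transcription factor that marks granule cell identity, had 4.23, 4.51 and 2.53 FPKM in AAV control IP and 11.7, 12.9 and 9.94 FPKM in KA IP (difference 1.56 ± 0.30, adjusted p = 0.00571), and lost its call without KA #2 (adjusted p = 0.0519). Npnt, an extracellular matrix protein (1.56 ± 0.35, adjusted p = 0.0117), lost its call without 4 of the 6 homogenates (adjusted p up to 0.0820). Stxbp6, a regulator of membrane fusion (1.12 ± 0.28, adjusted p = 0.0194), lost its call without 3 (adjusted p up to 0.125). Of 12 CA pyramidal cell markers, 5 were called higher (median 1.12), and with the homogenate block 7 were called higher and 1 lower. The KA effect on these 12 was called higher for 2 and lower for 2 in IP and lower for 1 in input, with medians of 0.34 in IP and −0.68 in input. Bok, of the Bcl-2 family (1.96 ± 0.21, adjusted p = 3.60e-04), and Itpka, an inositol trisphosphate kinase of dendritic spines (1.68 ± 0.33, adjusted p = 0.00576), kept their calls without each homogenate, and Slc17a7, the vesicular glutamate transporter VGLUT1 (1.77 ± 0.40, adjusted p = 0.0125), lost its call without KA #1 or #2 (adjusted p up to 0.0759). Got1, the cytosolic aspartate aminotransferase, was called higher too (1.63 ± 0.19, adjusted p = 4.74e-04). The median log2 ratio of the granule cell list went from −1.35, −1.12 and −1.08 in AAV control to −0.45, 0.02 and −0.14 in KA.

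The calls on oligodendrocyte transcripts turned on AAV control #3. Of 14 tested markers 3 were called higher, Mobp and Cldn11 among them, and the median difference was 1.80. The median log2 ratio of IP to input of the list was −1.42, −0.99 and 0.42 in AAV control #1 to #3, −0.77, −1.27 and 0.20 in PBS and 1.47, 1.23 and 0.75 in KA. Without AAV control #3, 13 of 14 were called higher and the median was 2.76, and with the homogenate block 12 were called. Mobp, a basic protein of myelin, had 22.4, 25.9 and 54.999 against 160.0, 98.3 and 65.6 FPKM in IP and 58.1, 59.8 and 61.7 against 64.3, 50.3 and 49.4 FPKM in input (difference 1.81 ± 0.52, adjusted p = 0.0387). It was called in the full set and without AAV control #3 (adjusted p = 0.00109) but not without any other homogenate (adjusted p up to 0.147). The same was so for Cldn11, the claudin of myelin (2.36 ± 0.59, adjusted p = 0.0207, up to 0.115). Mbp, myelin basic protein, named after its values were seen, had 80.8, 98.3 and 449 FPKM in AAV control IP and 772, 494 and 581 FPKM in KA IP and was not called in the full set (1.68 ± 0.86, adjusted p = 0.236), but was with the block (2.09, adjusted p = 7.92e-04) and without AAV control #3 (2.53, adjusted p = 3.32e-04). Of 5 oligodendrocyte precursor markers edgeR, DESeq2 and limma-voom called 0, with 2 at an unadjusted p below 0.05, both lower (median 0.18; Olig1 0.20 ± 0.25, adjusted p = 0.682). Without AAV control #3, 1 was called higher.

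Counts assigned to Lars2, a mitochondrial leucyl-tRNA synthetase, had a large difference and a large spread. The handling of multimapping reads is not given, so these counts can hold reads of other loci, which was not tested. The mitochondrial rRNA mt-Rnr2 led the input counts in AAV control (5.35%, 5.96% and 2.61%) and in KA #3 (3.46%). Apoe led them in KA #1 and #2. In IP Lars2 stood at 449, 913 and 193 FPKM in AAV control and 1265, 1778 and 1034 FPKM in KA, and in input at 2291, 3443 and 528 against 104, 171 and 823 FPKM. The log2 ratio of IP to input was −2.35, −1.91 and −1.44 in AAV control and 3.59, 3.37 and 0.33 in KA, and KA #3 lay between AAV control and the other two KA samples. The difference was 3.94 ± 1.18, adjusted p = 0.0461, and the call was lost without KA #1 or #2 and without AAV control #1 or #2 (adjusted p up to 0.203).

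**Figure D4:**
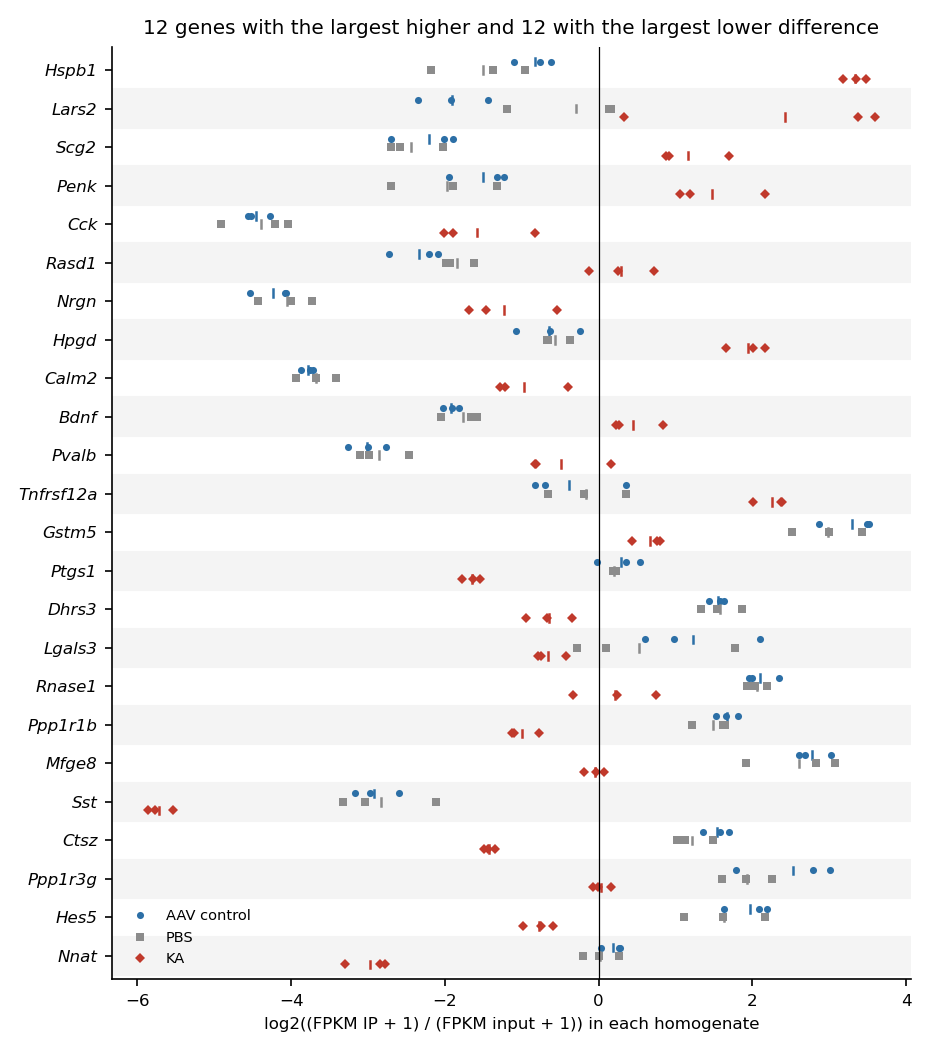
Log2 ratio of IP to input FPKM (1 added to both) in each homogenate for the 12 genes with the largest positive and the 12 with the largest negative IP-minus-input difference; circles are AAV control, squares PBS, diamonds KA, and ticks the mean of 3. KA values apart from the AAV control values were a condition for choosing these genes, so that separation is no result. The PBS mean lies nearer to the AAV control mean than to the KA mean in all 24 genes. KA values of Lars2 are the most spread.

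Markers of astrocytes were among the lower genes. Of the 20 astrocyte markers 11 were called lower and none higher, and the median difference was −1.33, with median KA effects of −0.89 in IP and 0.60 in input. Without AAV control #3, 16 were called lower. Gja1, the gap junction protein connexin 43, went from 91.2, 88.9 and 62.7 to 32.3, 31.6 and 23.2 FPKM in IP and had 11.999, 12.5 and 10.3 against 17.8, 14.97 and 12.4 FPKM in input (difference −1.76 ± 0.23, adjusted p = 6.59e-04). Aldh1l1, a folate enzyme used as a pan-astrocyte marker, had 35.4, 33.4 and 28.2 against 25.4, 25.1 and 17.4 FPKM in IP and 3.38, 3.25 and 4.10 against 7.28, 6.51 and 5.69 FPKM in input (difference −1.27 ± 0.22, adjusted p = 0.00291). The IP libraries of KA lay below those of AAV control for both genes, and IP stayed above input in all KA samples.

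Genes of transmitter uptake fell in IP. Of 13 tested genes of glutamate and GABA uptake and the glutamine cycle, 9 fell in IP, and in the difference 8 were called lower and Got1 alone higher (median −1.60). Slc1a3, the glutamate transporter GLAST, fell in IP from 322, 336 and 206 to 136, 128 and 97.5 FPKM, with 46.99, 47.9 and 34.2 against 71.5, 70.4 and 49.5 FPKM in input (difference −1.72 ± 0.28, adjusted p = 0.00231). Slc1a2, the glutamate transporter GLT-1, named after its values were seen, had 1534, 1658 and 885 against 448, 507 and 486 FPKM in IP and 168, 165 and 139 against 223, 219.8 and 216 FPKM in input (difference −1.87 ± 0.33, adjusted p = 0.00374). Glul, glutamine synthetase, likewise named after its values were seen, had 716, 731 and 871 against 203, 185 and 193 FPKM in IP (difference −1.98 ± 0.44, adjusted p = 0.0114) and lost its call without KA #2 or AAV control #1 (adjusted p up to 0.0672). The GABA transporter Slc6a11 (GAT-3) had 40.5, 41.4 and 24.96 FPKM in AAV control IP and 10.1, 10.3 and 7.75 FPKM in KA IP (difference −1.60 ± 0.21, adjusted p = 7.22e-04). Slc7a11, the cystine/glutamate exchanger, differed by −1.80 ± 0.27, adjusted p = 0.00125, with log2 ratios of IP to input of 1.05, 0.99 and 0.56 in AAV control and −0.53, −0.41 and −0.48 in KA.

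Of 14 tested genes of potassium and water handling and of endfeet, 5 were called lower and none higher, with 11 lower at an unadjusted p below 0.05 (median −0.87). The 5 were Gja1, Gjb6, Kcnj16, Mlc1 and Aqp4. Kcnj16, the inward rectifier Kir5.1, fell in IP from 13.04, 13.8 and 13.7 to 4.88, 4.41 and 5.31 FPKM and had 3.88, 3.70 and 2.59 against 3.63, 3.97 and 3.79 FPKM in input (difference −1.55 ± 0.24, adjusted p = 0.00152). Its partner Kcnj10 (Kir4.1) was not called, with 107, 108 and 58.96 against 144, 132 and 104 FPKM in IP and 16.6, 16.3 and 11.3 against 32.9, 30.3 and 27.8 FPKM in input (difference −0.48 ± 0.28, adjusted p = 0.305). Aqp4, the water channel of endfeet, was higher in KA in both kinds of library, 204, 174 and 170.3 against 383, 379.7 and 293 FPKM in IP and 15.3, 13.4 and 17.5 against 77.002, 65.97 and 54.4 FPKM in input, and its difference of −1.05 ± 0.26, adjusted p = 0.0193 came with a KA effect of 0.99 in IP and 2.04 in input. Kcnj10 and Aqp4 were named after their values were seen. Aqp4 lost its call without 4 of the 6 homogenates (adjusted p up to 0.118). Mlc1, a membrane protein of endfeet (−1.34 ± 0.30, adjusted p = 0.0115), lost its call without 3 (adjusted p up to 0.0717). Kcne1l, a potassium channel subunit, was not called (−0.44 ± 0.32, adjusted p = 0.413); it rose in both, from 36.2, 35.1 and 38.5 to 487, 460.4 and 388 FPKM in IP and from 3.49, 2.04 and 4.38 to 63.9, 59.8 and 53.3 FPKM in input.

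Hes5, a transcriptional repressor that Notch signalling switches on, was among the genes that fell furthest. In IP it had 32.2, 24.9 and 21.1 FPKM in AAV control and 3.29, 2.04 and 2.08 FPKM in KA, and in input 6.25, 5.07 and 6.12 against 5.51, 5.01 and 4.17 FPKM. It was above input in every AAV control sample and below input in every KA sample (difference −3.04 ± 0.29, adjusted p = 2.11e-04; −0.39 ± 0.35 for PBS). Hes5 overlaps Gm20421 on the opposite strand. Its promoter is shown because Notch acts through RBPJ, whose site GTGGGAA, searched on both strands, was in 1779 of 32851 promoters (5.42%) and in 471 of 7531 tested genes with one (6.25%). The window at chr4:154960673-154960922 (plus strand, GRCm38.p6) held 2 matches in opposite orientation, in capitals.
Hes5: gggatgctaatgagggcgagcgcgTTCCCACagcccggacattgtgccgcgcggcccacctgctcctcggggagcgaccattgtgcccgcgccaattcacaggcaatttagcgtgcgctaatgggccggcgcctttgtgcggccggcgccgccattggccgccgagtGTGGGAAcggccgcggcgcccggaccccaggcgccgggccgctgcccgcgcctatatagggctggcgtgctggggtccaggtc
The match nearer to the start ended 77 bases before it. Cck, Hspb1, Mfge8, Slc13a3 and Stxbp6 were the other named genes with a match, with differences in both directions. Of 11 tested genes of the Notch and BMP pathways, Hes5, Id2 and Id4 were called lower and none higher (median −0.96). The 11 include the receptor Notch1 and the ligand Bmp6 beside target genes. Hes1, Hey1, Id1, Id3 and Smad7 were not called. Id2, an inhibitor of differentiation (−1.07 ± 0.23, adjusted p = 0.0106), lost its call without 4 of the 6 homogenates (adjusted p up to 0.0814), and its relative Id4 (−1.99 ± 0.60, adjusted p = 0.0465) without 5 (up to 0.159). Without AAV control #3, 7 of the 11 were called lower.

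Several other large decreases stood outside the lists. Ppp1r3g, a glycogen-targeting subunit of protein phosphatase 1, fell in IP from 23.8, 22.05 and 9.56 to 2.20, 2.57 and 1.25 FPKM, with 2.09, 2.33 and 2.07 against 2.37, 2.57 and 1.02 FPKM in input (difference −2.95 ± 0.50, adjusted p = 0.00267). Ppp1r1b, which encodes the phosphatase inhibitor DARPP-32, fell from 58.7, 48.1 and 51.8 to 8.74, 10.3 and 7.70 FPKM in IP, with 15.99, 15.99 and 15.8 against 19.9, 23.6 and 13.9 FPKM in input (difference −2.73 ± 0.24, adjusted p = 1.96e-04). Mfge8, the secreted bridging protein lactadherin that marks phosphatidylserine for phagocytes, fell from 134, 114 and 186 to 14.2, 17.98 and 16.8 FPKM in IP, with 15.5, 16.8 and 29.7 against 13.5, 18.4 and 19.3 FPKM in input (difference −2.78 ± 0.45, adjusted p = 0.00226). Mfge8 and Ppp1r3g were at nearly the same level in IP and input in KA, and Ppp1r1b lay below input there. Gstm5, a glutathione S-transferase, fell from 3029, 2572 and 3031 to 322, 365 and 409 FPKM in IP (difference −2.46 ± 0.38, adjusted p = 0.00155). Dhrs3, a retinaldehyde reductase, fell from 11.9, 10.3 and 10.8 to 3.34, 4.46 and 3.43 FPKM in IP, with 3.17, 2.79 and 3.37 against 7.34, 5.92 and 6.03 FPKM in input (difference −2.50 ± 0.24, adjusted p = 2.11e-04). Rnase1, a secreted ribonuclease at low levels, differed by −2.59 ± 0.75, adjusted p = 0.0407 and lost its call without 5 of the 6 homogenates (adjusted p up to 0.119).

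Nnat, neuronatin, an imprinted membrane proteolipid, had the largest negative difference. IP and input were close in AAV control, 416, 449.5 and 696 FPKM in IP and 406, 375 and 574 FPKM in input. In KA, IP fell to 98.7, 84.9 and 92.6 FPKM while input held 686, 845 and 673 FPKM. The log2 ratio of IP to input was 0.03, 0.26 and 0.28 in AAV control, 0.26, −0.21 and −0.00 in PBS and −2.78, −3.30 and −2.85 in KA (difference −3.11 ± 0.39, adjusted p = 5.94e-04). Nnat overlaps Blcap on the opposite strand, so its counts can hold reads of that gene.

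Genes of cholesterol synthesis and of the membrane skeleton fell in IP. Of 16 tested genes of cholesterol synthesis 9 were called lower and none higher (median −1.30; median KA effect −1.17 in IP, where 11 fell, and 0.15 in input). The median log2 ratio of the list went from 1.33, 1.39 and 1.15 in AAV control to 0.12, 0.15 and 0.10 in KA. Msmo1, a sterol oxidase, had 33.1, 30.5 and 40.4 against 10.9, 10.8 and 11.6 FPKM in IP and 7.54, 7.36 and 10.2 against 11.6, 9.48 and 8.62 FPKM in input (difference −1.78 ± 0.29, adjusted p = 0.00241). Its IP and input levels overlapped in KA and did not in AAV control. Sqle, squalene epoxidase, differed by −1.45 ± 0.19, adjusted p = 7.11e-04. Lss, lanosterol synthase, differed by −1.40 ± 0.22, adjusted p = 0.00185. Of 13 tested spectrins, ankyrins and membrane scaffold genes, 7 fell in IP, and in the difference 6 were called lower and 2, Epb41l3 and Add2, higher (median −0.86). Sptan1, the non-erythroid alpha spectrin, had 188, 235 and 321 FPKM in AAV control IP and 30.1, 40.8 and 47.2 FPKM in KA IP, with 11.96, 11.2 and 9.32 against 8.79, 9.70 and 9.85 FPKM in input (difference −2.38 ± 0.38, adjusted p = 0.00215). Its partner Sptbn1 had 176, 151 and 102 against 34.2, 41.8 and 29.9 FPKM in IP (difference −1.57 ± 0.30, adjusted p = 0.00477), and Epb41l2, a protein 4.1 family member, differed by −1.70 ± 0.21, adjusted p = 5.93e-04.

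Other genes were lower in the difference while they rose in input. All 8 tested microglia markers rose in input and 5 rose in IP, and 4 (Aif1, P2ry12, C1qc and C1qa) were called lower in the difference (median −1.72), with median KA effects of 3.25 in input and 1.57 in IP. With the homogenate block, all 8 were called lower. Their list of 15, of which 7 did not pass the filter, summed to between 194 and 483 FPKM in AAV control input and 2758 and 3836 FPKM in KA input, and in IP to between 22.5 and 43.1 and between 66.2 and 117 FPKM. Aif1, which encodes the microglial protein Iba1, had 15.9, 13.1 and 15.5 FPKM in AAV control input and 139.9, 120.4 and 83.7 FPKM in KA input, and 3.31, 2.80 and 3.57 against 11.2, 10.5 and 8.34 FPKM in IP (difference −1.23 ± 0.27, adjusted p = 0.0102). It lost its call without KA #2 or AAV control #1 (adjusted p up to 0.0610). C1qc, a chain of complement C1q (−2.05 ± 0.57, adjusted p = 0.0329), lost its call without each homogenate but AAV control #3 (adjusted p up to 0.127). With the homogenate block its difference was −2.10 ± 0.19 (edgeR adjusted p = 1.42e-05). P2ry12, a purinergic receptor (−1.57 ± 0.37, adjusted p = 0.0162), lost its call without 4 of the 6 (adjusted p up to 0.0852). C1qa, named after its values were seen, differed by −1.69 ± 0.50, adjusted p = 0.0460 and lost its call without 3 (adjusted p up to 0.174).

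Outside the fixed lists, the named genes that follow were called lower in the difference, and each that is said to rise in input passed the test there. Ctsz, the lysosomal protease cathepsin Z, had 75.4, 61.5 and 106 FPKM in AAV control IP and 104, 85.3 and 83.6 FPKM in KA IP, but rose from 24.5, 18.4 and 40.8 to 282, 218 and 236 FPKM in input (difference −2.88 ± 0.44, adjusted p = 0.00158). IP was above input in every AAV control sample and below it in every KA sample. Lgals3, galectin-3, differed by −2.57 ± 0.76, adjusted p = 0.0449, with 3.19, 3.55 and 14.4 against 7.44, 5.63 and 7.37 FPKM in IP and 1.75, 1.30 and 2.61 against 13.2, 10.5 and 10.2 FPKM in input, and lost its call without 5 of the 6 homogenates (adjusted p up to 0.160). Ptgs1, cyclooxygenase 1, fell in IP from 3.61, 3.34 and 2.95 to 1.60, 1.38 and 1.36 FPKM and rose in input from 2.61, 1.995 and 3.01 to 7.86, 6.38 and 5.88 FPKM (difference −2.47 ± 0.27, adjusted p = 3.49e-04). The next 4 genes were named after their values were seen. Apoe, apolipoprotein E, had 32024, 29752 and 27434 FPKM in AAV control IP and 27579.7, 26973 and 19199 FPKM in KA IP, and rose from 1871, 1525 and 3608 to 13606, 11681 and 7624 FPKM in input (difference −2.38 ± 0.53, adjusted p = 0.0120; adjusted p up to 0.0880 without a homogenate). Gpnmb, a glycoprotein of lysosome-laden phagocytes, rose furthest in input of the lower genes, from 0.135, 0.177 and 0.293 to 4.53, 4.93 and 4.73 FPKM, and in IP from 2.003, 1.67 and 2.97 to 10.9, 9.29 and 9.27 FPKM (difference −2.26 ± 0.41, adjusted p = 0.00410). Grn, progranulin, differed by −1.79 ± 0.50, adjusted p = 0.0344 and lost its call without 5 of the 6 homogenates (adjusted p up to 0.127). Hexa, a subunit of hexosaminidase, differed by −1.53 ± 0.26, adjusted p = 0.00292.

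Of 5 tested complement genes, C1qc, C1qa and C4b were called lower and Cd59a higher (median −1.69). C4b, an opsonin precursor, was over input in IP of both groups, unlike the C1q chains, with 21.7, 18.5 and 27.4 against 79.8, 60.8 and 43.3 FPKM in IP and 1.49, 1.23 and 2.46 against 17.6, 15.3 and 11.5 FPKM in input, and rose in both, more in input (difference −1.55 ± 0.41, adjusted p = 0.0284). It was called in the full set and without AAV control #3 but in no other set of 5 homogenates (adjusted p up to 0.122). Cd59a, an inhibitor of the membrane attack complex, was called higher (1.75 ± 0.48, adjusted p = 0.0335) under the same limits (up to 0.164).

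A negative difference places a gene that is under input in AAV control further under it in KA. This holds by definition for the 12 lower genes that were at least 2-fold under input in AAV control. They were Aif1, P2ry12, C1qa and C1qc of microglia, Cldn5 and Ly6c1 of endothelium, the neuronal genes Sst, Calb2 and Nrsn2, and mt-Nd5, mt-Nd6 and mt-Te of the mitochondrial genome. Ly6c1, an endothelial surface protein, fell in IP from 6.62, 7.92 and 6.05 to 1.98, 1.83 and 1.31 FPKM and held 26.8, 21.7 and 31.1 against 35.98, 36.2 and 28.9 FPKM in input (difference −2.24 ± 0.26, adjusted p = 4.38e-04). Cldn5, the claudin of the blood-brain barrier, differed by −1.17 ± 0.35, adjusted p = 0.0465 and lost its call without 5 of the 6 homogenates (adjusted p up to 0.191). Of 11 mitochondrially encoded genes, mt-Nd5 (−1.59 ± 0.30, adjusted p = 0.00482) and mt-Nd6 (−1.59 ± 0.47, adjusted p = 0.0444), which overlap on opposite strands, were called lower, and the median of the list was −1.32. With the homogenate block 7 of the 11 were called lower, and without AAV control #3, 5. The median log2 ratio of IP to input of the list was −1.78, −2.37 and −1.84 in AAV control. It was −3.13, −2.97 and −4.35 in KA and −1.71, −3.42 and −1.38 in PBS, so PBS #2 lay among the KA values. mt-Nd6 lost its call without 5 of the 6 homogenates (adjusted p up to 0.143). Of 85 nuclear genes of the respiratory chain edgeR and limma-voom called 0 and DESeq2 1, lower, with 2 at an unadjusted p below 0.05 and a median of −0.04; Cox6a1, a subunit of cytochrome c oxidase, had a difference of 0.35 ± 0.54, adjusted p = 0.749. Of 76 cytosolic ribosomal proteins edgeR, DESeq2 and limma-voom called 0, with 2 at an unadjusted p below 0.05 and a median of 0.00; Rplp1 had a difference of −0.10 ± 0.39, adjusted p = 0.915.

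**Figure D5:**
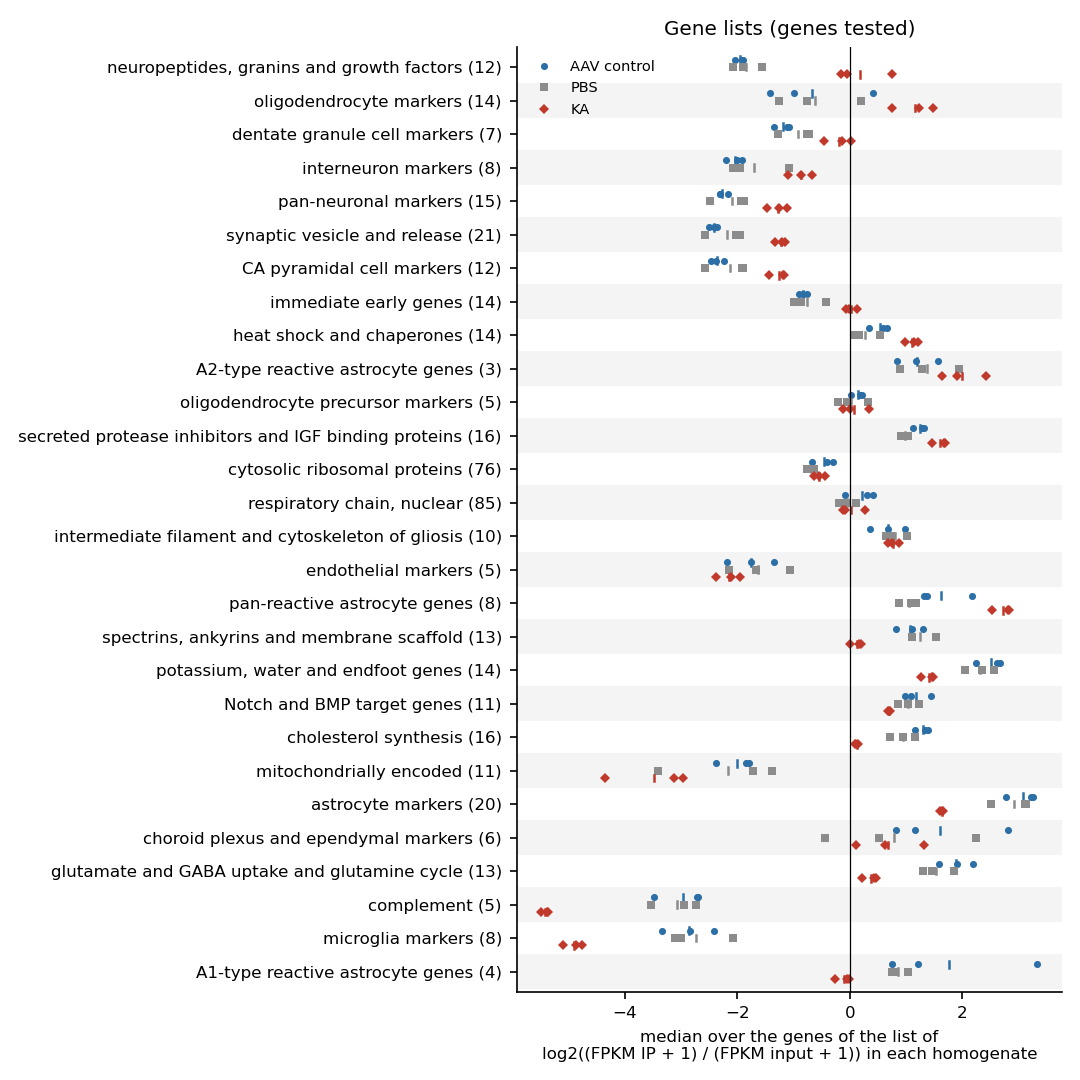
Median log2 ratio of IP to input FPKM (1 added to both) over the tested genes of each list in each homogenate; circles are AAV control, squares PBS, diamonds KA, ticks the mean of 3, and lists are ordered by their median IP-minus-input difference. Neuronal and vesicle lists lie closer to 0 in KA than in AAV control, astrocyte, transport and cholesterol lists also lie closer to 0 from the other side, and microglia and complement lists lie further below 0 in KA.

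Most pan-reactive astrocyte genes rose both in IP and in input. Of the 8 tested pan-reactive genes 7 rose in IP and 7 in input, with median KA effects of 3.38 and 3.55, and Hspb1 alone was called in the difference (list median −0.68). With the homogenate block 2 were called higher and 1 lower. Over the genes with an FPKM above 1 in all 12 libraries the list median was 0.55. Gfap, the intermediate filament of astrocytes, rose from 622, 566 and 843 to 3377, 3624 and 4051 FPKM in IP and from 29.2, 27.3 and 47.3 to 376, 390.0 and 363 FPKM in input, a difference of −0.90 ± 0.42, adjusted p = 0.201; it was called lower within run 1 alone. Serpina3n, a secreted protease inhibitor, rose from 10.1, 8.01 and 39.3 to 725, 511 and 521 FPKM in IP and from 4.61, 3.91 and 12.1 to 93.3, 70.5 and 88.4 FPKM in input, with AAV control #3 the highest of its group in both. Its difference was 1.38 ± 0.84, adjusted p = 0.328; it was called with the homogenate block (1.53, adjusted p = 1.72e-04) and without AAV control #3 (1.82, adjusted p = 0.00139). Igfbp2, an insulin-like growth factor binding protein, went from 103, 92.6 and 55.2 to 1167, 903 and 702 FPKM in IP and from 45.3, 35.1 and 18.03 to 196, 149 and 106 FPKM in input. Its IP was above input in all samples, more so in KA (log2 ratio 1.17, 1.37 and 1.56 in AAV control and 2.57, 2.59 and 2.72 in KA), and its difference of 1.36 ± 0.43, adjusted p = 0.0577 missed the threshold but was called with the block (1.33, adjusted p = 1.21e-04) and without AAV control #3 (1.45, adjusted p = 0.00801).

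The lists of A1-type, A2-type and cytoskeletal genes held no call by edgeR or limma-voom. The median KA effect over 4 A1-type genes was −0.80 in IP and 2.29 in input, and no single one passed the test in either. The 13 genes of the A1 list summed in IP to 53.4 to 1165 FPKM in AAV control and 266 to 315 FPKM in KA. H2-D1 in KA IP lay above AAV control #1 and #2 and below #3, so the negative median in IP is no uniform fall. All 3 A2-type genes rose in IP and 1 in input (medians 2.22 and 1.43). For the difference, of 4 A1-type genes 2 had an unadjusted p below 0.05, both lower, DESeq2 called 0, and the median was −3.18, or −1.39 without AAV control #3; the homogenate block called 3 lower. Of 3 A2-type genes 0 had such a p, DESeq2 called 0, and the median was 0.20; the block called 1 higher. Of 10 genes of the gliotic cytoskeleton 3 had such a p, DESeq2 and the block each called 1 higher, and the median was −0.06. H2-D1, of the A1 list, had 45.997, 38.5 and 876 FPKM in AAV control IP and 192, 182 and 169 FPKM in KA IP (difference −3.30 ± 1.47, adjusted p = 0.173) and was called lower without AAV control #3 (−1.52, adjusted p = 6.94e-04) and with the block (−2.25, adjusted p = 0.00263). S100a10, of the A2 list, differed by −0.05 ± 0.52, adjusted p = 0.971, and its KA effect was 1.35 in IP and 1.40 in input. Of 14 heat shock genes Hspb1 and Hsph1, a chaperone of the Hsp110 family (1.35 ± 0.24, adjusted p = 0.00342), were called higher (median 0.32). Of 2 pericyte and smooth muscle markers edgeR, DESeq2 and limma-voom called 0, with 1 at an unadjusted p below 0.05 (Acta2 −1.42 ± 1.28, adjusted p = 0.537), and their median of −1.18 became 0.03 without AAV control #3. Of 6 choroid plexus and ependymal markers these tools called 0, with 0 at such a p (Tmem212 −2.14 ± 1.23, adjusted p = 0.299), the homogenate block called 2 lower, Tmem212 among them (−1.67, adjusted p = 0.0414), and their median of −1.39 became −0.07 without AAV control #3. All 9 genes of the choroid plexus and ependymal list summed in input to 2512 to 4504 FPKM in KA and 41.3 to 2995 FPKM in AAV control. In PBS input they summed to 39.8 to 307 FPKM, so the inputs held unequal amounts of these transcripts. Endothelial markers had 2 of 5 called lower (median −0.63), Cldn5 and Ly6c1. Slc13a3, a dicarboxylate transporter, was the 1 tested gene of the meningeal fibroblast list. It was called lower (−1.43 ± 0.43, adjusted p = 0.0481) but not without 5 of the 6 homogenates (adjusted p up to 0.146). In AAV control it had 3.66, 3.43 and 4.71 FPKM in IP and 0.864, 0.823 and 1.43 FPKM in input. Because it was over input there, its call is not read as one of fibroblasts.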

How the data were processed

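Hippocampal RNA of 6 homogenates (3 KA, 3 AAV control), each split into IP and input, gave the 12 libraries compared, and 6 PBS libraries served as an outside reference. The deposited raw counts per gene were made by the authors with STAR alignment to mm10, and the processing notes name featureCounts and edgeR. The deposited FPKM values were computed by the authors and served for the filter (above 1 in the 6 IP libraries) and for values per library; FPKM was count over total and a fixed gene length for 99.8% of 15347 genes within 1%. Annotation release, strand setting and handling of multimapping reads are not given in the sources used here. Counts were tested with edgeR 4.0.16 (R 4.3.3; TMM, quasi-likelihood, 4 group means over 12 libraries, contrast of KA effects). DESeq2 1.42.0, limma-voom (limma 3.58.1), other scalings and filters, run and block terms and leaving out each homogenate were alternatives. The test was checked on simulated data. The simulated libraries were independent, with no shared homogenates and no sequencing runs, so the check does not cover these features of the data. With 3 homogenates a group, an exact permutation test cannot go below p = 0.1, so none was used. IP and input of a sample are paired by the shared homogenate; their residuals correlated at r = 0.446 to 0.735, each best with its own partner. Replicates are separate pools of mice.

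Genes were named by a rule: in each direction the 12 largest called differences among annotated protein-coding genes with a mean FPKM of at least 5 in a group, up to 3 called genes per list by smallest p (or the most abundant where none was called), Igfbp2, Kcne1l and Serpina3n from the study text, and Rpl10a. This gave 84 genes, of which a few are not reported here; 18 were added after their values were seen, as marked. Other list members are named only as called or not. The rule also required, for the 12 largest, that KA ratios of IP to input did not overlap those of AAV control. The rule, the lists and the comparison were chosen with earlier results of these data known. Of 55291 symbols 53292 (96.4%) matched GENCODE M21 on mm10, which gave locations and overlaps; 37 of the 84 genes overlap another gene.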

Additional observations from a re-analysis of the deposited data

Results flagged for a closer look

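In 2 genes the KA effect was called in opposite directions in IP and in input, with the difference between the effects tested. Pvalb rose in IP (1.56) and fell in input (−1.20), a difference of 2.76 ± 0.33, adjusted p = 4.74e-04, between 2.36 and 2.93 without each homogenate in turn. Ptgs1 fell in IP (−1.13) and rose in input (1.34), a difference of −2.47 ± 0.27, adjusted p = 3.49e-04, between −2.69 and −2.36 without each homogenate. The adjusted p-values are from edgeR. Both genes were among the 12 largest of their direction. Those genes had to have KA ratios of IP to input that did not overlap the AAV control ratios, so that separation is no further evidence.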

How the results depend on the processing

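The counts of 939 called, 493 higher and 446 lower genes moved most with the low-value filter and with single homogenates. Without the FPKM filter 1693 of 34618 genes were called, 943 higher and 750 lower. With the homogenate as a replicate block 681 were called lower, and within run 1 alone 715. Leaving out each homogenate gave 489 to 1321 called, 269 to 659 higher and 220 to 662 lower, the highest counts without AAV control #3 and the lowest without KA #2. DESeq2 called 1080 genes, limma-voom 902. Upper-quartile scaling called 403 higher and 535 lower and put the median difference of all genes at −0.12. The PBS contrast called 0 genes, 1 with the homogenate block, and 0 to 32 when a homogenate was left out. For KA and AAV control samples of the same number, which share only a number and a sequencing run, residuals correlated at r = 0.311 to 0.527, and a block on the number called 1263 genes. No named gene that was called in the full set changed direction under an alternative; 51 of 72 called by the rule kept their call in every alternative run. Beside the calls given in the report, the block changed no other call of a named gene. The fits without a homogenate did not pair IP and input. With the block over all homogenates, edgeR kept the calls of C4b (adjusted p = 1.61e-05), Id4 (5.02e-06), Lgals3 (2.62e-04) and Slc13a3 (5.03e-04). Among the genes the text names, calls were also lost under limma-voom for Cldn5, Id4, Lgals3, Rnase1, Slc13a3, mt-Nd6, Arc and C1qa, under upper-quartile scaling for Lars2, Mobp and Arc, without the filter for Id2 and Aqp4, and within run 1 for Per3. Calls were gained for Igfbp2 and Mbp with the number block or the run term, for Igfbp2, Mbp, H2-D1, Serpina3n and Gfap within run 1, for Igfbp2 under DESeq2, and for Acta2, H2-D1, Igfbp2, Serpina3n, Tmem212 and Mbp without the filter. Genes at or below an FPKM of 1 in any IP library, RNA found in input alone among them, were not tested. The cause of these shifts was not tested.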
